A study of Homo sapiens with 8 samples.

Results

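The genes of the constitutive proteasome were taken by name: a symbol of PSMA to PSMG followed by a number, with the immunoproteasome genes PSMB8, PSMB9 and PSMB10 and all pseudogenes left out. This gave 47 gene identifiers under 45 symbols among the 57820 genes of the tables. The rule uses symbols and no measured value, although the family was picked for description with earlier results of these data known. Of the 47 identifiers, 44 (43 symbols) had enough counts to be tested, among the 11218 genes tested in all. PSMA8, known from testis, had no count in any library, and PSMB11, known from thymus, had none in 7 of 8. A second gene model each of PSMA1 (ENSG00000256206.2) and PSMA2 (ENSG00000256646.3) overlaps the main gene. The PSMA1 model had too few counts to be tested, and the PSMA2 model was counted as a member but left out of the class values below.

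The proteasome is the protease complex that degrades ubiquitin-tagged proteins. Its core particle is a barrel in which outer rings of alpha subunits gate the entry and inner rings of beta subunits carry the proteolytic sites. The regulatory particle caps the barrel: ATPases in its base unfold the substrate, other base subunits hold ubiquitin receptors, and the lid removes the ubiquitin chain. Dedicated chaperones assemble both particles, and other activators or an inhibitor can bind the core in place of the regulatory particle.

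All 8 libraries came from A549 cells, an established line from a human lung adenocarcinoma, with poly(A)-selected RNA. A pair of libraries, A and B, carried each of 4 treatments: a vector overexpressing MGA, an empty vector (Empty), an siRNA against MYC (siMYC) and a negative-control siRNA (siNC). MYC is a transcription factor that pairs with MAX, and MGA is a large MAX partner that binds the same DNA motif, the E-box. The labels used here do not name the vector, the siRNA sequences or the time after treatment, nor whether a line was 1 clone. The study asked whether MGA represses genes that MYC activates, as its title states, so MGA was set against Empty and siMYC against siNC. Nothing in the labels says that libraries A and B were separate cultures. A p-value here therefore covers the spread between 2 libraries a group, which may be technical. That spread was pooled over all 4 groups in one fit, so each comparison also draws on the libraries of the other experiment.

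The libraries held between 820428 and 2129010 expected counts. Both manipulations were visible in the RNA: MGA took 9.54% and 9.68% of the counts in the MGA libraries and at most 0.0124% elsewhere, and MYC averaged 44.7 ± 5.05 CPM in siMYC and 201 ± 26 CPM in siNC libraries (SD, n = 2 each). CPM is used here for counts relative to the TMM-scaled library size. MYC itself was higher in MGA libraries, at 321 ± 36.3 CPM, than in Empty libraries, at 237 ± 5.07 CPM (log2 fold change 0.43, edgeR adjusted p = 0.025). The epithelial keratins KRT8 and KRT18 were abundant in all libraries, 4 of 5 lung-lineage markers were at 0 (FOXA2 was present), and EPCAM was at 0 to 1.2 CPM in the vector libraries. Of the other epithelial markers, AKR1C1 and AKR1B10 averaged at least 230 and 927 CPM in every group, and CDH1 24 to 59 CPM. KRT19 averaged 7.74 CPM in MGA and 9.47 CPM in Empty, but 100 CPM in siMYC and 43.3 CPM in siNC libraries. CDKN2A, deleted in A549 cells, was at 0 throughout.

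The promoters of 3 members are shown as examples of the windows searched for motifs. The windows are RefSeq promoters of 300 bases around the gene start on GRCh38.p14, written 5′ to 3′ on the gene's own strand. PSMG1 was chosen as the member with the largest siMYC difference, PSMD11 as the lid subunit with the smallest p there, and PSMB3 as a core subunit with an E-box. PSMG1 lies at chr21:39183402-39183701 on the minus strand, PSMD11 at chr17:32444260-32444559 on the plus strand and PSMB3 at chr17:38752491-38752790 on the plus strand. Capitals mark every match of 4 of the 5 motifs searched: TGACNNNGC and CCAAT in PSMG1, CCGGAA (read on the other strand) in PSMD11, and CACGTG, TGACNNNGC and CCAAT in PSMB3. The GC box GGGCGG is left in lower case and had 4 matches in PSMG1, 2 in PSMD11 and 1 in PSMB3.
PSMG1: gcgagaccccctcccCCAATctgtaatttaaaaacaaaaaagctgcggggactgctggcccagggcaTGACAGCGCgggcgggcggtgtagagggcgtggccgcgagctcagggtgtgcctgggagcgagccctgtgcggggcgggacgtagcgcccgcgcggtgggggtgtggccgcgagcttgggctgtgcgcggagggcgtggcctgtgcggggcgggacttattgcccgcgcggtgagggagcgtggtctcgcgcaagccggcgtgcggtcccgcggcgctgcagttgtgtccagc
PSMD11: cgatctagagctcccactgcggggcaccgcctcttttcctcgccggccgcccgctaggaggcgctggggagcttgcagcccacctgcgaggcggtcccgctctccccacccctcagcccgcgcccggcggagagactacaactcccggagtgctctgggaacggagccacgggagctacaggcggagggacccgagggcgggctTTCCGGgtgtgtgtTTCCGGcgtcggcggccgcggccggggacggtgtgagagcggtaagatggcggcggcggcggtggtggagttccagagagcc
PSMB3: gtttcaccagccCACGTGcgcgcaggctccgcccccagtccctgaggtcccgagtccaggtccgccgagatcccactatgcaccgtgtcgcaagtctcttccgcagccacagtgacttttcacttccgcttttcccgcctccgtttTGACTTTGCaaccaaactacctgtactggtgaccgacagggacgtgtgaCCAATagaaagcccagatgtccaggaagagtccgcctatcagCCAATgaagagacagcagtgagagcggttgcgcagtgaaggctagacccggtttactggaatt

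Promoters were found for 39 of the 45 symbols, and each motif was searched on both strands. A gene counted as a match if any of its promoters held the motif, while shares of all promoters count single promoters. The 39 include PSMA8 and PSMB11, which were not tested for expression. CACGTG, the canonical E-box bound by MYC-MAX and MGA-MAX, was in 3 of the 39 (PSMB3, PSMD9 and PSME3), a share beside 7.26% of all 35116 promoters and 12.9% of the 8370 tested genes that had one. Of the members lower with siMYC, 2 of 20 held it, and of those not called, 1 of 17. TGACNNNGC, the antioxidant-response core that NFE2L1 and NFE2L2 bind, was in 14 of 39 members, against 13.3% of all promoters and 19.6% of tested genes. CCGGAA, an ETS-type motif, was in 22 of 39, against 17.2% and 36.6%. By gene, it lay in 13 of 16 of the regulatory particle but in 3 of 12 of the core particle, the untested PSMA8 among them. CCAAT was in 19 of 39 members, against 34.6% and 43.8%, with 8 of 12 in the core and 8 of 16 in the regulatory particle. GGGCGG, the GC box, was in 27 of 39, against 45% and 79%. A match describes the letters in the window and not binding.

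Per unit of gene length, the chaperone genes were the least abundant class, and the core particle genes had higher medians than the regulatory particle genes in every group. The deposited TPM values, which correct for length, had a median over core particle genes of 198 in siMYC and 266 in siNC libraries, and of 277 in MGA and 274 in Empty libraries. For the regulatory particle the medians were 158 TPM in siMYC and 164 TPM in siNC, and 180 TPM in MGA and 171 TPM in Empty. For the chaperones they were 47.8 TPM in siMYC and 67.8 TPM in siNC, and 62.3 TPM in MGA and 65.4 TPM in Empty. Subunits that occupy one complex in equal number still differed in RNA level. In siNC libraries the core particle ran from PSMB2 at 81.8 TPM to PSMA7 at 459 TPM, a 5.61-fold range. The regulatory particle ran there from the ATPase PSMC6 at 102 TPM to the lid subunit PSMD8 at 434 TPM. Among the chaperones the lowest was PSMG4 at 17.7 TPM and the highest PSMG1 at 124 TPM.

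**Figure D1:**
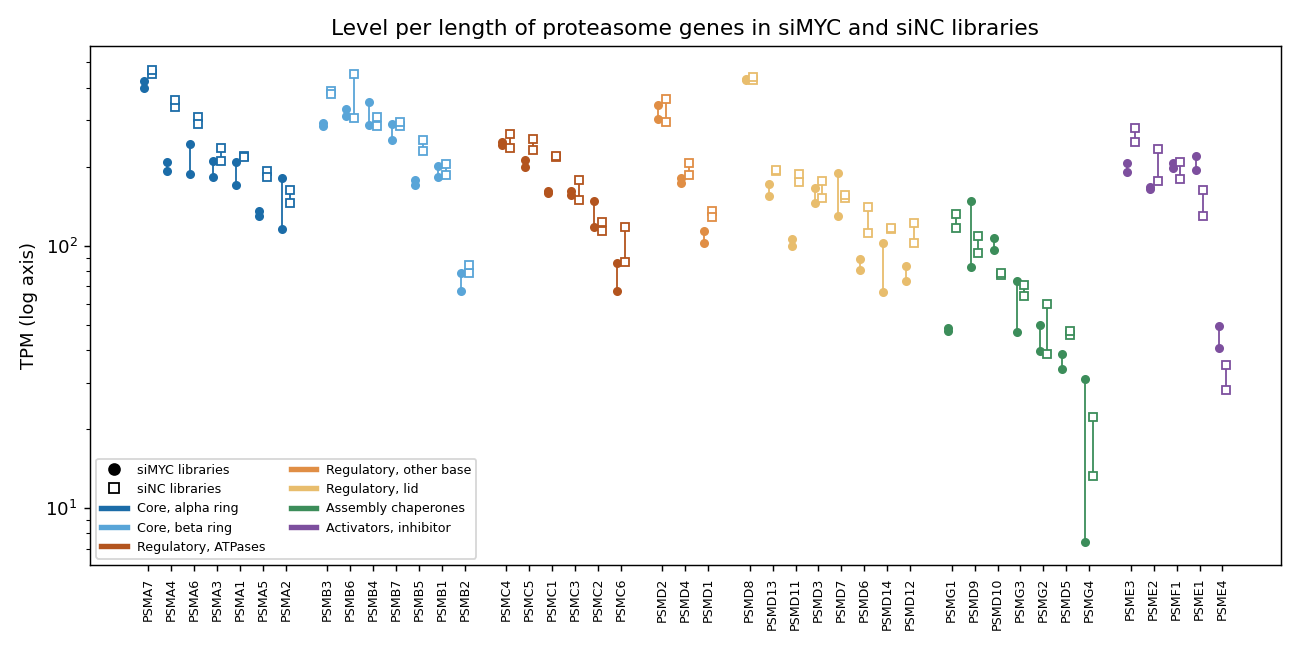
Level per length (TPM, log axis) of each tested proteasome gene in both siMYC libraries (filled circles) and both siNC libraries (open squares), joined by a line within a group and coloured by class. The chaperones sit lowest as a class, and PSMG1 and PSMA4 show siMYC libraries well below the siNC libraries.

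The MGA vector left the proteasome genes close to their Empty levels. None of the 44 tested members was called higher or lower in MGA than in Empty at an adjusted p under 0.05 (edgeR quasi-likelihood test, Benjamini-Hochberg over all 11218 genes), where 8.96% of all genes were called, 4.96% higher and 4% lower. At an unadjusted p under 0.05, 5 members differed, and the share of all genes at that threshold was not taken. DESeq2 and limma on TPM also called 0 members, where they called 3.19% and 0.731% of all genes. With shares this low, 0 of 44 members says little. The summed level of all members was 6377 ± 117 CPM in MGA and 6511 ± 19.6 CPM in Empty libraries (SD, n = 2 each), a ratio of 0.979. For 34 of the 44 the 95% interval of the fold change stayed within 1.5-fold in either direction, and for 42 within 2-fold. In siMYC against siNC, where 23 members were called, the counts were 18 and 41. The 2-fold bound thus leaves room for changes of the size called there. Both MGA libraries lay below both Empty libraries for 10 members and above for 8, while the groups overlapped for 26, and among all genes 52.6% did not overlap.

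No member of any class was called in this comparison, and differences between classes were not tested. The core particle summed to 2055 ± 88 CPM in MGA and 2121 ± 36.4 CPM in Empty, and its median log2 fold change was -0.08. The regulatory particle summed to 3021 ± 39.4 CPM in MGA and 3004 ± 42.7 CPM in Empty, with a median of -0.03. The chaperones summed to 280.1 ± 7.79 CPM in MGA and 260.1 ± 23.5 CPM in Empty, with a median of -0.06. The other activators and the inhibitor summed to 1002 ± 73.5 CPM in MGA and 1111 ± 79.3 CPM in Empty, a ratio of 0.902, with a median of -0.23. The median over all genes tested was 0.01. Across members the differences ran from -0.85 (PSMG4, adjusted p = 0.43, a chaperone with the fewest counts) to 0.55 (PSMD9, adjusted p = 0.10). PSMD9, a chaperone of the ATPase ring, had 70.25 and 59.58 CPM in MGA against 46.31 and 43.17 CPM in Empty, so the libraries did not overlap, but the log2 fold change of 0.55 ± 0.21 (SE) did not pass. PSMB7, the trypsin-like protease subunit, had 185.2 and 141.4 CPM in MGA against 133.1 and 133.1 CPM in Empty (adjusted p = 0.21). PSME3 and the inhibitor PSMF1 had log2 fold changes of -0.27 and -0.26 and were called lower in MGA when libraries were scaled by their total alone. That scaling shifts the median of all genes by over 0.1, to -0.12.

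Silencing MYC went with lower RNA of the proteasome as a whole. In siMYC, 23 of the 44 tested members fell and 0 rose relative to siNC (edgeR quasi-likelihood test, adjusted p under 0.05), where 39% of all genes were called, 20% lower and 19% higher. At an unadjusted p under 0.05, 31 members differed, all of them lower in siMYC. The share of all genes at that looser threshold was not taken, and the 39% does not stand for it. The log2 fold change was below 0 for 39 members and above 0 for 5, and its median was -0.34 against 0.01 over all genes. All members together summed to 5162 ± 221 CPM in siMYC and 6642 ± 216 CPM in siNC libraries (SD, n = 2 each), a ratio of 0.777. In summed TPM the gap was smaller, with 7109 and 7366 in siMYC against 8238 and 8433 in siNC. On TPM the median log2 fold change of all genes was 0.14. As a share of the counts they took 0.512% and 0.542% in siMYC against 0.649% and 0.669% in siNC. Both siMYC libraries lay below both siNC libraries for 32 members and above for 1, and 67.6% of all genes did not overlap. Abundant genes are called more often, so the shares were also taken over the 2122 genes at or above the members' lower quartile of level: there 33.9% of genes fell, and 19 of 33 members did. CPM is a share of the library, so less proteasome RNA per cell and more of other RNA cannot be told apart.

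**Figure D2:**
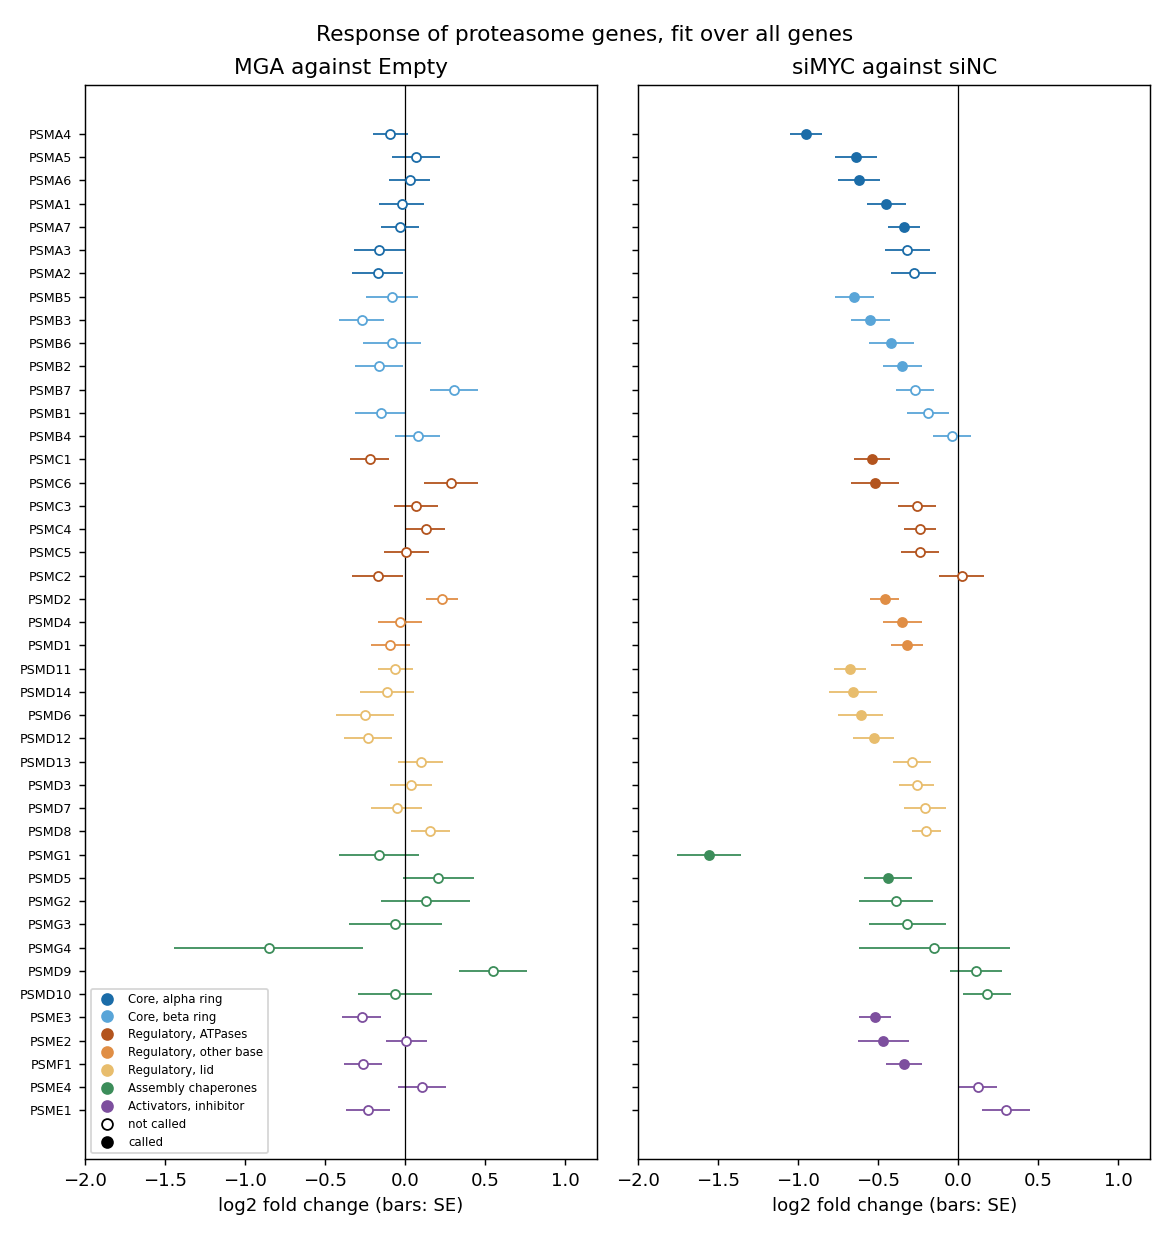
Log2 fold change with its standard error for the 43 tested proteasome genes, MGA against Empty on the left and siMYC against siNC on the right, in colours by class, with filled symbols for genes called at an adjusted p under 0.05. The left panel has no filled symbol and scatters around 0, while the right panel has 23 filled symbols, all below 0.

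Genes of both the core and the regulatory particle fell. In the core particle 9 of 14 tested genes fell and the median log2 fold change was -0.38, with sums of 1642 ± 93.7 CPM in siMYC and 2218 ± 75 CPM in siNC, a ratio of 0.74. In the regulatory particle 9 of 17 fell and the median was -0.32, with sums of 2546 ± 115 CPM in siMYC and 3262 ± 86.3 CPM in siNC, a ratio of 0.781. Among the chaperones 2 of 7 fell and the median was -0.32, with sums of 285.6 ± 28.3 CPM in siMYC and 347.2 ± 29.3 CPM in siNC, a ratio of 0.823. The chaperone median moved to 0.01 without siMYC library A and to -0.01 without siNC library B, so it rests on these libraries. Among the other activators and the inhibitor 3 of 5 fell, with a median of -0.34. Of all genes 20% fell, as did 33.9% of the genes at or above the members' lower quartile of level. These shares also belong beside the counts of each ring, the ATPases and the lid below. The 2 of 7 chaperones are near them. No test of a difference between classes was made.

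In the alpha ring 5 of 7 genes fell, with a median of -0.45. PSMA4 had the smallest p of all members, with 120.4 and 126.4 CPM in siMYC against 237.9 and 237.3 CPM in siNC. The siMYC libraries were thus at a fold of 0.519, far outside the spread of either pair (log2 fold change -0.95 ± 0.10 SE, adjusted p = 4.0e-08). PSMA6 had 125.5 and 98.19 CPM in siMYC against 177.2 and 170.9 CPM in siNC (-0.62 ± 0.13, adjusted p = 2.6e-04). PSMA5 had 77.67 and 74.25 CPM in siMYC against 117.2 and 120.1 CPM in siNC (-0.64 ± 0.13, adjusted p = 2.9e-04). In each of these 3 outer-ring subunits both siMYC libraries lay below both siNC libraries. They were named for their small p, so this separation adds nothing to the calls, and 67.6% of all genes did not overlap. PSMA1 (-0.45) and PSMA7 (-0.34) also fell, while PSMA2 (-0.28) and PSMA3 (-0.32) did not pass.

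In the beta ring 4 of 7 genes fell, with a median of -0.35. PSMB5 carries the chymotrypsin-like site that bortezomib targets. It had 105.2 and 117.8 CPM in siMYC against 158.6 and 188.4 CPM in siNC (-0.65 ± 0.12, adjusted p = 9.3e-05). PSMB3, a structural subunit, had 102.5 and 101.3 CPM in siMYC against 150.7 and 147.5 CPM in siNC (-0.55 ± 0.12, adjusted p = 5.8e-04). PSMB6, the caspase-like subunit, had 123.2 and 135.6 CPM in siMYC against 135.7 and 206.4 CPM in siNC (-0.42 ± 0.14, adjusted p = 0.017). The siNC libraries of PSMB6 were far apart, and without siNC library B its log2 fold change was -0.09 (adjusted p = 0.71), while without siMYC library A it was -0.35 (adjusted p = 0.11). PSMB2 (-0.35) fell as well, and PSMB7 (-0.27), PSMB1 (-0.19) and PSMB4 (-0.04) did not pass, so that of the 3 proteolytic subunits PSMB5 and PSMB6 were called and PSMB7 was not.

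Of the 6 ATPases of the base 2 fell, with a median of -0.25. That count is near the 33.9% of genes at or above the members' lower quartile of level that fell. PSMC1 had 141.5 and 147.9 CPM in siMYC against 214.3 and 207.6 CPM in siNC (-0.54 ± 0.11, adjusted p = 1.6e-04). PSMC6 had 66.64 and 53.39 CPM in siMYC against 95.01 and 79.89 CPM in siNC (-0.52 ± 0.15, adjusted p = 0.0066). The PSMC6 pairs were separate but scattered, and its call was lost without siNC library A (-0.40, adjusted p = 0.088) or siMYC library B (-0.39, adjusted p = 0.069). PSMC4 had 204.1 and 205 CPM in siMYC against 252.2 and 231.5 CPM in siNC and did not pass (-0.24 ± 0.10, adjusted p = 0.065). PSMC3 (-0.26) and PSMC5 (-0.24) did not pass either, and PSMC2 was at 0.02, the single regulatory particle gene above 0. The ATPases form one ring in the complex, yet their RNAs ranged from -0.54 to 0.02.

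All 3 of the other base subunits fell: PSMD2 and PSMD1, the large scaffold subunits of the base, and PSMD4, a ubiquitin receptor. PSMD2 had 278.5 and 298.9 CPM in siMYC against 402.9 and 388.4 CPM in siNC (-0.46 ± 0.09, adjusted p = 2.0e-04). Its deposited TPM values did not follow the counts, with 344.39 and 302.64 TPM in siMYC against 360.64 and 295.71 TPM in siNC. The effective length that the TPM divides by was 0.831 times as long in siMYC as in siNC for this gene. PSMD4 (-0.35) and PSMD1 (-0.32) fell less.

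In the lid 4 of 8 genes fell, with a median of -0.41. PSMD11, a subunit whose level is known to set the amount of assembled proteasome in human stem cells, had 156.7 and 160.8 CPM in siMYC against 249.3 and 258.3 CPM in siNC (-0.68 ± 0.10, adjusted p = 4.0e-06). PSMD6 had 67.56 and 63.21 CPM in siMYC against 107.2 and 94.47 CPM in siNC (-0.61 ± 0.14, adjusted p = 6.3e-04). Both, named for their small p, were separate between groups by more than the spread of either pair. PSMD14, the deubiquitinase that cuts the chain off, had a log2 fold change of -0.66 (adjusted p = 7.6e-04), which was -0.34 without siMYC library A (adjusted p = 0.082). PSMD12 fell too (-0.53), and PSMD13, PSMD3, PSMD7 and PSMD8 were between -0.29 and -0.20 without passing.

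The largest fall of any member was in a chaperone. PSMG1, which with PSMG2 starts the alpha ring, had 19.3 and 18.41 CPM in siMYC against 60.01 and 52.48 CPM in siNC, from 42 and 30 counts against 84 and 90. This was a fold of 0.339 (log2 fold change -1.56 ± 0.20, adjusted p = 4.3e-07), with no overlap. Its partner PSMG2 had 21.6 and 26.39 CPM in siMYC against 23.58 and 37.32 CPM in siNC (-0.39 ± 0.23, adjusted p = 0.19), so the groups overlapped, and it passed without siNC library A (-0.65, adjusted p = 0.038). PSMG3 (-0.32) and PSMG4 (-0.15), which work as another pair on the same ring, did not pass, although PSMG3 passed without siMYC library B (-0.73, adjusted p = 0.038). Of the chaperones of the base, PSMD5 fell, with 68.48 and 79.78 CPM in siMYC against 89.3 and 109.6 CPM in siNC (-0.44 ± 0.15, adjusted p = 0.021). That call was lost without siNC library B (-0.30, adjusted p = 0.26) or siMYC library A (-0.33, adjusted p = 0.18). PSMD9 (0.11) and PSMD10 (0.18) were above 0 and did not pass.

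**Figure D3:**
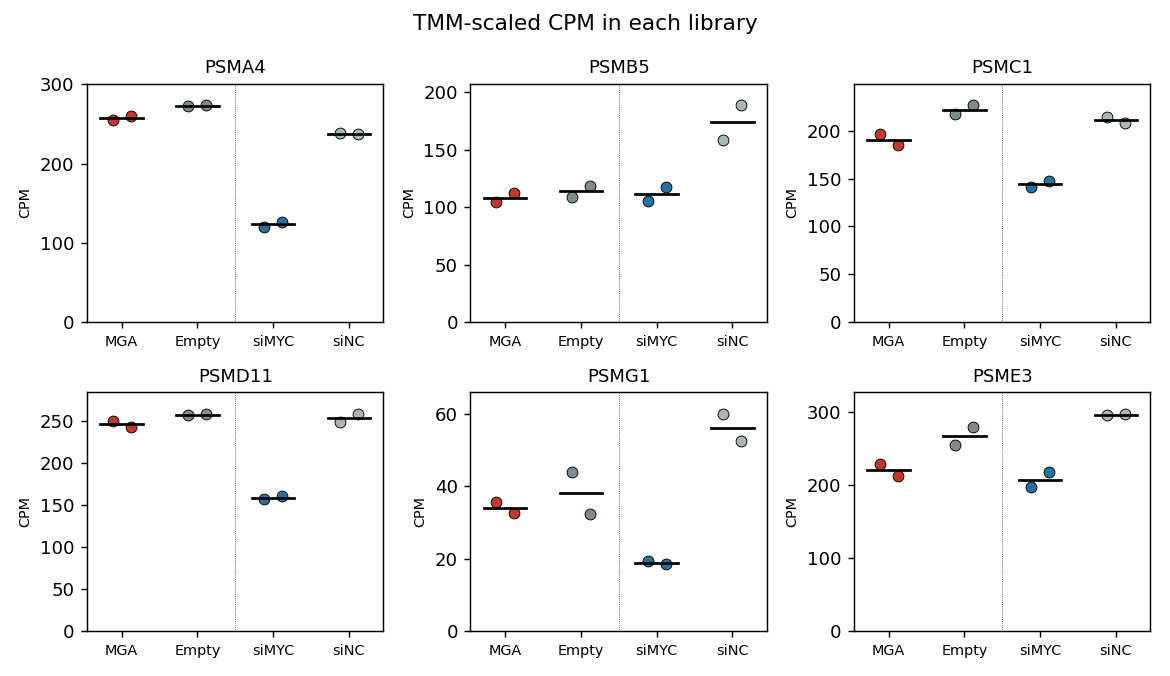
TMM-scaled CPM of 6 members in every library, with MGA left of Empty and siMYC left of siNC; points are libraries A and B and bars their mean. The 6 were picked from members called lower in siMYC. In all 6 panels both siMYC points lie below both siNC points, for PSMG1 at 19.3 and 18.41 CPM against 60.01 and 52.48 CPM. MGA and Empty points lie closer together, although both MGA points lie below both Empty points for PSMA4, PSMC1, PSMD11 and PSME3.

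Of the alternative caps, PSME3, the nuclear activator that does not need ubiquitin, had 197.2 and 217.2 CPM in siMYC against 295 and 296.8 CPM in siNC (-0.52 ± 0.10, adjusted p = 1.3e-04). PSMF1, the inhibitor, had 154.4 and 144.8 CPM in siMYC against 184.3 and 195.9 CPM in siNC (-0.34 ± 0.11, adjusted p = 0.012). PSME2 had 68.48 and 59.53 CPM in siMYC against 72.87 and 103.2 CPM in siNC (-0.47 ± 0.16, adjusted p = 0.02). The groups were separate in all 3, named for their small p, where 67.6% of all genes did not overlap. Both last calls rest on single libraries. PSME2 was at -0.19 without siNC library B (adjusted p = 0.49) and -0.39 without siMYC library B (adjusted p = 0.097). PSMF1 was at -0.31 without either (adjusted p = 0.083 and 0.058), and on TPM it stood at 0.07 (adjusted p = 0.9). PSME1, the partner of PSME2 in the interferon-induced activator, ran the other way at 0.30 without passing (adjusted p = 0.12), with 108.5 and 97.57 CPM in siMYC against 72.15 and 94.47 CPM in siNC. Without siNC library B it passed as higher (0.50, adjusted p = 0.044). PSME4, another nuclear activator, was at 0.12.

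How firmly the siMYC calls stand differs between members. Under all 20 other settings tried, 6 of the 23 calls held: PSMA4, PSMA5, PSMB5, PSMC1, PSMD11 and PSMG1. DESeq2 called 11 members and limma on TPM 6, all among the 23 and all lower, where 17.6% and 11.1% of all genes were called. Leaving out 1 library gave between 16 and 25 calls, with 16 without siNC library B and 16 without siMYC library A, and it ended 11 of the 23 calls at least once. Besides those named above, PSMA1 was lost without siMYC library A (-0.33, adjusted p = 0.099), and PSMA7 without siMYC library A (-0.27, adjusted p = 0.10) or siNC library B (-0.30, adjusted p = 0.071). PSMB2 was lost without siMYC library A (-0.21, adjusted p = 0.30) or siNC library B (-0.29, adjusted p = 0.17), and PSMD4 without siMYC library A (-0.33, adjusted p = 0.096) or siNC library B (-0.27, adjusted p = 0.20). PSMD1 was lost without siMYC library B (-0.28, adjusted p = 0.063) or siNC library B (-0.32, adjusted p = 0.051). Markers of other cells also moved: of 7 such genes, PTPRC, CD3E and VWF were at 0 in all libraries. The list summed to 126 and 125 TPM in siMYC against 26.2 and 36.4 TPM in siNC, through COL1A1 (2.23) and CD68 (0.86). It was higher still in the vector libraries, at 155 and 157 TPM in MGA and 181 and 178 TPM in Empty. The part of these markers in the result was not tested.

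For 9 members the MGA response and the siMYC response differed. In a direct test of the difference (MGA response minus siMYC response, log2), these 9 of 44 were called higher and 0 lower, and 35 were not called, where 18.5% of all genes were called, 10.3% higher and 8.22% lower. At an unadjusted p under 0.05, 17 members differed, with PSME1 the single one lower, and the share of all genes at that threshold was not taken. The members' median was 0.32, against 0.03 over all genes. Over the 2122 genes of at least the members' lower quartile of level, 21.9% were called higher and 18.6% lower, against 7 and 0 of 33 members. The share of members called in either direction was thus near that of all genes, and the share called higher was near that of genes of like level.

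PSMA4 had the smallest p, with a difference of 0.86 ± 0.15 (adjusted p = 1.8e-04): it had 254.6 and 259.4 CPM in MGA against 272.1 and 273.4 CPM in Empty, a log2 fold change of -0.09 beside -0.95 with siMYC. PSMD2 differed by 0.68 ± 0.14 (adjusted p = 7.3e-04), with 347.6 and 368 CPM in MGA against 298.7 and 311.8 CPM in Empty. On TPM the PSMD2 difference was -0.01 (adjusted p = 0.98). PSMG1 differed by 1.40 ± 0.32 (adjusted p = 0.0025), with 35.58 and 32.71 CPM in MGA against 43.99 and 32.38 CPM in Empty, groups that overlap. PSMD11 differed by 0.62 ± 0.15 (adjusted p = 0.0041), with 250 and 243 CPM in MGA against 257 and 257.8 CPM in Empty. On TPM its difference was 1.29, with an effective length 0.685 times as long in MGA as in Empty. PSMA5 differed by 0.71 ± 0.20 (adjusted p = 0.011), with 138.7 and 120.3 CPM in MGA against 113.5 and 134.3 CPM in Empty. Its call was lost without MGA library A (0.61, adjusted p = 0.10) or Empty library A (0.61, adjusted p = 0.077). PSMC6 (0.81), PSMA6 (0.65), PSMB7 (0.58) and PSMB5 (0.57) were the other 4 called, and each lost its call without at least 1 library. PSMC6 was at 0.71 without MGA library A and 0.68 without siNC library A. PSMA6 was at 0.62 without MGA library A, 0.51 without Empty library B and 0.50 without siMYC library B. PSMB7 lost its call without MGA library A (0.36), Empty library A or B (0.59 each), siMYC library A (0.49) or siNC library B (0.54). PSMB5 lost it without MGA library A (0.64) or B (0.53), Empty library A (0.52) or B (0.64), siMYC library A (0.49) or siNC library B (0.45). PSMA4 alone held under all settings. The count was 2 with DESeq2 and 3 on TPM, where 7.37% and 3.09% of all genes were called. Without MGA library A the difference of PSME1 was -0.71.

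Genes that work with the proteasome but are no members did not move as one. Of 11 other subunits and partners, 4 fell and 2 rose in siMYC, where 20% of all genes fell and 19% rose. USP14, a deubiquitinase that docks on the regulatory particle, had 47.8 and 47.25 CPM in siMYC against 124.3 and 122.5 CPM in siNC (log2 fold change -1.37, adjusted p = 9.1e-09). UCHL5, the other docked deubiquitinase, was at -0.80. ZFAND5, a proteasome activator, rose (0.48), as did AKIRIN2, a factor for nuclear import of the proteasome (0.84). POMP, the chaperone of core maturation, did not pass (-0.26, adjusted p = 0.17). With MGA, 1 of these 11 was called, where 8.96% of all genes were. That gene, the ubiquitin receptor ADRM1, rose with MGA (0.46, adjusted p = 0.041), and it fell in siMYC (-0.40, adjusted p = 0.023).

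Of 5 transcription factors and processing enzymes of the proteasome recovery pathway, 3 fell and 1 rose in siMYC. Of all genes, 20% fell and 19% rose there. NFE2L1, the factor that raises proteasome genes when the proteasome is inhibited, rose slightly (0.23, adjusted p = 0.041), and the enzymes that activate it, DDI2 (-0.52) and NGLY1 (-0.42), fell, as did the related NFE2L3 (-0.96). With MGA only the related factor NFE2L2 changed, with 229.9 and 220.8 CPM in MGA against 123.9 and 163.1 CPM in Empty (0.66, adjusted p = 0.0026). Of 13 ubiquitin, shuttle and unfoldase genes, 4 fell and 1 rose in siMYC, a share near the 39% of all genes called there. Among those that fell were RPS27A, a ubiquitin-ribosomal fusion gene (-0.29), and the shuttle UBQLN4 (-0.68). With MGA 2 of these 13 fell, where 4% of all genes did. They were the polyubiquitin gene UBB (-0.39, adjusted p = 0.0048) and the unfoldase VCP (-0.37, adjusted p = 0.0087).

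The interferon-linked forms were higher in both vector groups than in both siRNA groups. PSME1 had 231.7 and 184.6 CPM in MGA and 220 and 273.4 CPM in Empty libraries, all above the 72.15 to 108.5 CPM of the siRNA libraries. PSME2 had 287.4 and 257 CPM in MGA and 251.2 and 292.6 CPM in Empty libraries, against 59.53 to 103.2 CPM in the siRNA libraries. The immunoproteasome subunits, which replace PSMB5, PSMB6 and PSMB7 in cells exposed to interferon, were split in the same way. PSMB8 had 72.99 and 72.43 CPM in MGA, 86.83 and 83.94 CPM in Empty, 17 and 7.978 CPM in siMYC and 12.14 and 5.831 CPM in siNC libraries. PSMB9 had 73.9 and 84.12 CPM in MGA, 93.78 and 82.74 CPM in Empty, 6.434 and 13.5 CPM in siMYC and 7.144 and 11.08 CPM in siNC libraries. PSMB10 had 42.88 and 28.04 CPM in MGA, 43.99 and 44.37 CPM in Empty, 11.95 and 12.89 CPM in siMYC and 15.72 and 20.99 CPM in siNC libraries. None of the 3 immunoproteasome genes passed edgeR's test within an experiment, where the smallest adjusted p was 0.11 (PSMB10 in siMYC against siNC, unadjusted p = 0.051). The vector and siRNA experiments treated the cells in different ways that the labels do not detail, and the parts of these cannot be told apart here. No test was therefore made between the experiments.

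**Figure D4:**
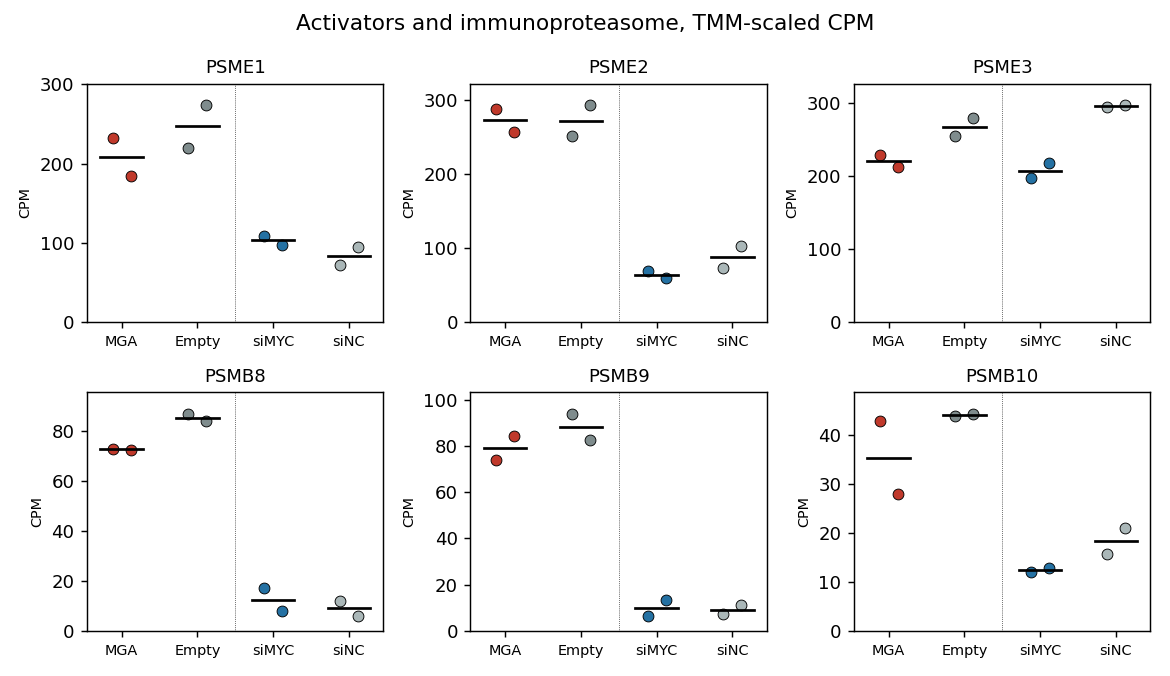
TMM-scaled CPM in every library of the activator genes PSME1, PSME2 and PSME3 and the immunoproteasome genes PSMB8, PSMB9 and PSMB10, with MGA left of Empty and siMYC left of siNC; points are libraries A and B and bars their mean. All panels but that of PSME3 show the 4 vector libraries above the 4 siRNA libraries.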

How the data were processed

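Poly(A)-selected RNA of 8 A549 libraries (4 groups of 2) was sequenced; RNA was purified with a Qiagen RNeasy kit and libraries were built with NEB kits, per the labels' protocols. STAR, RSEM and the build hg19 are named, per the submitters' processing notes; their versions, the annotation and the strand setting were not found in the labels or headers. Each library's deposited gene table holds RSEM's expected count, TPM and FPKM, per the file headers. Deposited expected counts divide reads shared by several genes; deposited TPM values are scaled by length and total, and deposited FPKM values were not used.

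Expected counts were rounded, filtered with filterByExpr (minimum count 10, minimum total 15) and fitted in edgeR 4.0.16 (R 4.3.3) with TMM factors, 4 group means and 4 residual degrees of freedom. The quasi-likelihood F test was two-sided, p-values were adjusted by Benjamini-Hochberg over 11218 genes, and calls were made at 0.05. Standard errors are the log2 fold change divided by the square root of F, and intervals are 95%. Permutation of 2 against 2 libraries gives an exact p of 0.333 at the least and was not used. Members and lists were chosen with earlier results of these data known.

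Values in every library are given for the 3 members of each class with the smallest siMYC p, for any member called with MGA or higher with siMYC, and for the 5 with the smallest p in the difference of responses; PSMD9, PSMB7, PSME1, PSMB2 and other members named outside this rule were chosen after their values were seen. Alternatives were RLE, upper-quartile and no scaling factors, other count filters, DESeq2 1.42.0, limma 3.58.1 on log2(TPM + 1), fits of one experiment, a block on the replicate letter, removal of the MGA gene, merged pseudogenes and each library left out. The merging of overlapping gene models and the background restricted by level were added after seeing the data. Some genes of the ubiquitin list are not reported here by name. Replicates differed by more than sampling noise (chi-square per degree of freedom 1.14 to 1.79) and were kept apart. In GENCODE v29, 22 of 46 member identifiers found have exons that overlap another gene, 17 of them on the opposite strand (PSMA2, PSMC1, PSMD6, PSMD11, PSMD14, PSME1, PSME2, PSME3 and PSME4 among them), so their reads may be shared. The script was tested on simulated data.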

Additional observations from a re-analysis of the deposited data

How the results depend on the processing

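With 2 libraries a group and 820428 to 2129010 counts each, small changes of low genes such as PSMG4 were not detectable. Scaling by library totals alone called 2 members lower in MGA (PSMF1 and PSME3), and 5 in the difference of responses (1 of them lower). Of all genes, 9.99% and 18.5% were called under that scaling. In siMYC against siNC, DESeq2 called 11 members and limma on TPM 6, where 17.6% and 11.1% of all genes were called. In the difference of responses they called 2 and 3, where 7.37% and 3.09% of all genes were called. Leaving out each library gave 0 to 0 members in MGA against Empty, 16 to 25 in siMYC against siNC and 5 to 11 in the difference. The cause of these shifts was not tested.

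Medians in MGA against Empty moved to -0.16 (upper-quartile factors) and -0.21 (library size alone) for the core particle, and for the chaperones to -0.19 (library size alone), 0.04 (minimum count 30) and 0.08 (TPM); library size alone put the median of all genes at -0.12. Leaving out a library gave -0.10 to -0.03 for the core, -0.06 to 0.08 for the regulatory particle and -0.09 to 0.13 for the chaperones. In siMYC against siNC the TPM medians were -0.19 for the core and -0.23 for the regulatory particle, with all genes at 0.14; relative to that they were -0.33 and -0.37. Leaving out a library gave -0.49 to -0.34, -0.39 to -0.32 and, for the chaperones, -0.56 to 0.01. On TPM the sign turned for PSMF1 in siMYC (0.07, adjusted p = 0.9) and for PSMD2 in the difference of responses (-0.01, adjusted p = 0.98).

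The replicate letters were not shown to pair the libraries: deviations of same-lettered libraries correlated across genes at -0.021 for MGA and Empty and at 0.133 for siMYC and siNC, and over genes with a log2 CPM above 5 at -0.002 and 0.254. With the replicate block, 27 members were called in siMYC against siNC, 0 in MGA against Empty and 9 in the difference. Over all members, comparisons and settings, a call was lost with its direction kept 92 times and gained 27 times, and it was lost with a change of sign in the 2 cases above.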
